A study of Xenopus laevis with 16 samples.

Results

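The genes that make, break down, carry and read retinoic acid were followed in Xenopus laevis animal caps, the explanted ectoderm of the blastula, made to express the transcription factors Pax3 or Pax3 and Zic1. The members were all probe sets whose gene symbol in the array's annotation, without the ending .L or .S, was aldh1a2, cyp26a1, cyp26c1, dhrs3, rdh10, rara, rarb, rarg, rxra or ptgds. The endings name the long and short chromosomes of this allotetraploid frog, which keeps copies of many genes on both. This gave 24 of 32539 probe sets. They belong to 11 gene copies of 9 of the 10 genes, since rarb had no probe set, and 7 further copies listed by RefSeq had none either. Of the 24, 13 had a mean over all samples above 4.90, the median of all probe set means, and no filter on level was applied.

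Retinoic acid is made from retinol by way of retinaldehyde. Retinol dehydrogenase 10 (rdh10) carries out the first oxidation, and aldehyde dehydrogenase 1a2 (aldh1a2), the main enzyme of this kind in early vertebrate embryos, oxidises retinaldehyde to retinoic acid. The reductase dhrs3 turns retinaldehyde back into retinol, and the cytochromes cyp26a1 and cyp26c1 oxidise retinoic acid for removal. Retinoic acid acts through nuclear receptors of the RAR family (rara, rarb, rarg), which bind DNA together with RXR partners such as rxra. In gastrula and neurula embryos it is known for patterning the neural plate and its border from front to back, and cyp26a1 and dhrs3 are known targets of the signal in several vertebrates. Pax3 and Zic1 regulate transcription at the border of the neural plate, where the neural crest arises.

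There were 5 groups of 3 biological samples. Control caps were not injected and received neither dexamethasone nor cycloheximide. Pax3 caps came from embryos injected at early cleavage with Pax3-GR, a fusion to the hormone-binding part of the glucocorticoid receptor that becomes active with dexamethasone, and Pax3+Zic1 caps from embryos injected with both Pax3-GR and Zic1-GR. Caps were cut at stage 9, received dexamethasone for 2 h, and were lysed when sibling embryos were at about stage 12. The remaining 2 groups carried the same constructs and hormone and had been given 0.1 mg/ml cycloheximide, an inhibitor of protein synthesis, for 30 min before the hormone and then together with it, a design used to ask which genes respond without new protein. Injected or hormone-treated caps without these factors, and caps with cycloheximide alone, were not among the samples compared here. Hence a difference from control also holds injection and dexamethasone, and in the drug groups cycloheximide, and these cannot be told apart.

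Values are deposited log2 expression per probe set. Differences are between group means with the standard error of limma's model over all 15 samples, and p-values are adjusted by Benjamini-Hochberg over all 32539 probe sets, with 0.05 as the threshold. Samples of one replicate number deviated together in every pair of groups, so each adjusted p is followed, where the call differs, by its value in a second model that also holds the replicate number, called the blocked fit. A p in parentheses after a difference is the adjusted p of the unblocked fit, unless it is marked as blocked. The ± after a difference is always the standard error of the unblocked fit, also where only a blocked p is given. The blocked fit has its own standard error, which is not printed. The 4 comparisons with control share the same 3 control samples. The 3 pax3 probe sets that rose in the Pax3 group were 3.61 to 3.96 above control there and 4.25 to 4.96 in Pax3+Zic1 caps, all with adjusted p at most 0.0134. The other pax3 probe sets, all annotated to pax3.L, did not rise and passed in neither fit. Their differences ran from -0.34 to -0.19 in Pax3 caps and from -0.92 to 0.12 in Pax3+Zic1 caps. The zic1.S probe set Xl2.1796.1.S1_at was above control by 1.02 ± 0.41 (0.92, blocked 0.0051) in Pax3 caps and 2.16 ± 0.41 (0.0435, blocked 5.7e-05) in Pax3+Zic1 caps, and the other, Xl2.1796.1.S2_at, by 0.92 ± 0.29 (0.468, blocked 0.083) and 0.35 ± 0.29 (1, blocked 0.487). Between Pax3+Zic1 and Pax3 caps they differed by 1.14 ± 0.41 (0.812, blocked 0.0066) and -0.57 ± 0.29 (1, blocked 0.304). With cycloheximide both were above control in Pax3 caps too, by 1.73 ± 0.41 (0.0462) and 1.97 ± 0.29 (0.00372). In Pax3+Zic1 caps with the drug they were above it by 2.87 ± 0.41 (0.00173) and 1.71 ± 0.29 (0.00502). Hence zic1 RNA was also raised in caps without the Zic1 construct, and "with Zic1" below means caps that received Zic1-GR.

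With Pax3 alone, aldh1a2.L, the synthesis enzyme, was the only member gene that rose in the unblocked fit, by 2.35 in its probe set with the highest mean. In these caps rarg.S was lower in the blocked fit alone, with differences of -0.69 to -0.61 over its 3 probe sets. With Pax3 and Zic1, aldh1a2.L and the receptor gene rara.L rose, the latter by 1.36, and rarg.S fell by 0.71, while dhrs3.L, ptgds.S and cyp26a1.L were higher in the blocked fit alone. With cycloheximide, aldh1a2.L was again above control, and the breakdown gene cyp26a1.S rose by 1.87 with Pax3 and 3.06 with Pax3 and Zic1. dhrs3.L, cyp26a1.L, cyp26c1.S and rara.L rose as well where both factors met the drug, and no rarg.S probe set was called against control there. In the blocked fit alone, dhrs3.L, cyp26a1.L, cyp26c1.S and rdh10.S were higher and rdh10.L lower with Pax3 and cycloheximide. With both factors and cycloheximide, ptgds.S and rdh10.S were higher and rdh10.L lower in that fit alone.

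In Pax3 caps 2 of 24 member probe sets passed against control, both higher, where 0.221% of all probe sets were called higher. The blocked fit called 4 higher and 3 lower, where 0.839% and 1.3% of all probe sets were. In Pax3+Zic1 caps 2 were higher and 1 lower, against 0.289% and 0.203% of all probe sets, and in the blocked fit 7 and 3, against 2.17% and 2.18%. With cycloheximide, 5 were higher in Pax3 caps and 8 in Pax3+Zic1 caps, against 1.28% and 2.21%. The blocked fit called 9 higher and 1 lower in Pax3 caps with the drug, against 7.87% and 6.99%, and 11 higher and 1 lower in Pax3+Zic1 caps with the drug, against 9.15% and 9.78%. Differences above 1 in size were found for 3, 7, 9 and 9 of the 24 in these 4 comparisons in the same order, against 2.14%, 3.35%, 4.45% and 6.05% of all probe sets. The median member difference was 0.14, 0.40, 0.23 and 0.67, against 0.02, 0.00, -0.03 and -0.03 over all probe sets. All 3 samples of the factor group lay above all 3 of control for 5, 9, 13 and 12 of the 24 members, where 3.82%, 4.54%, 8.35% and 8.29% of all probe sets did, and below them for 3, 3, 1 and 1, where 4.14%, 4.59%, 11.2% and 12.3% did. Several members are probe sets of one gene, so they are not independent of each other.

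**Figure D1:**
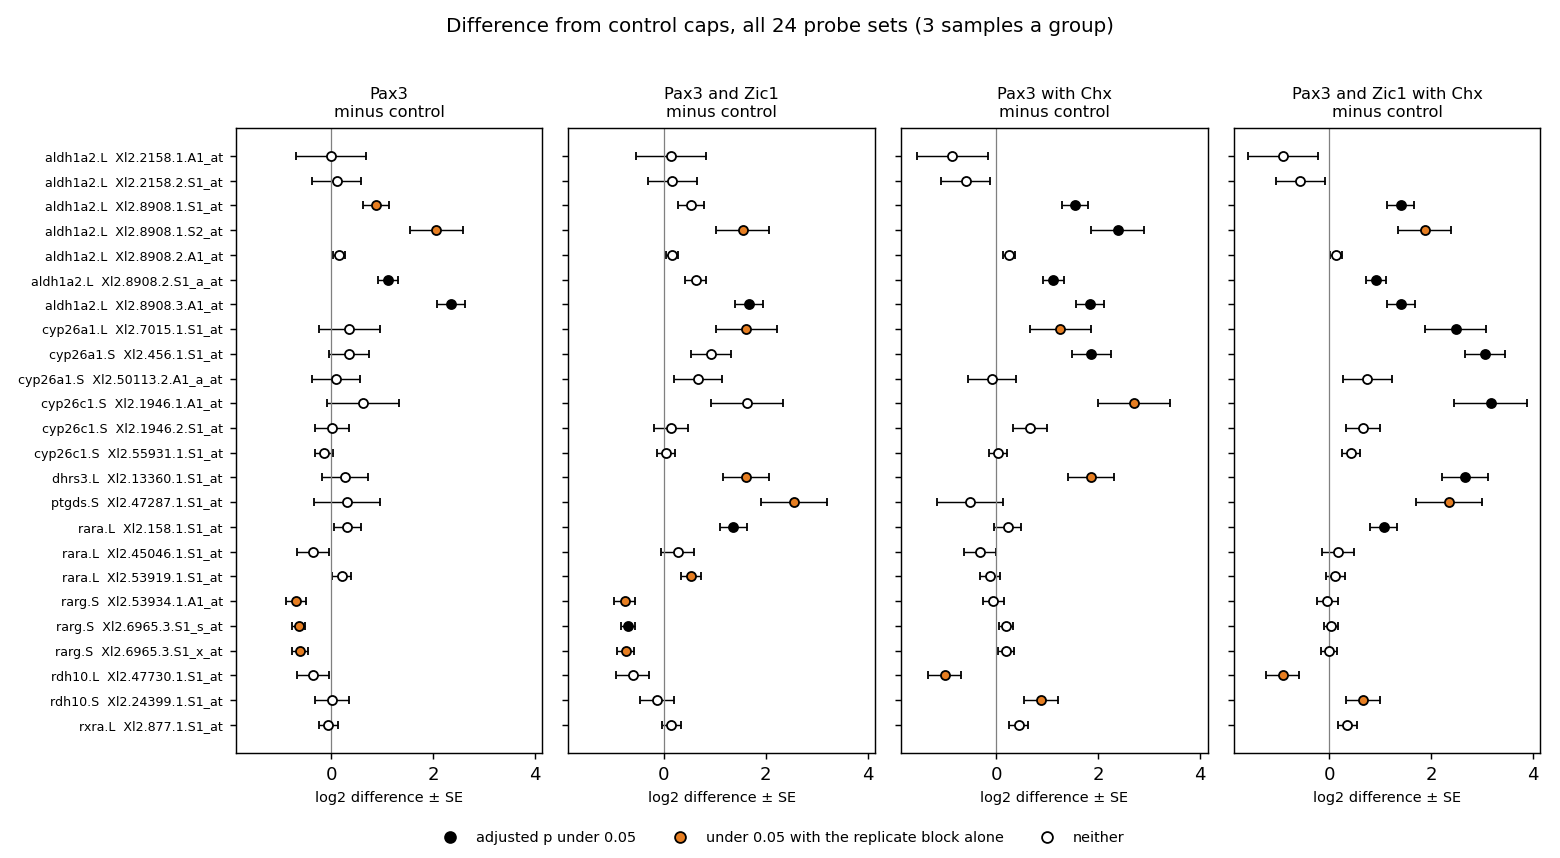
Log2 difference from control caps with its standard error (horizontal axis, 3 samples a group) for each of the 24 probe sets (rows) in the 4 factor groups. Filled black points have an adjusted p under 0.05, orange points only with the replicate block. The aldh1a2.L probe sets of the Xl2.8908 series lie right of 0 in all 4 panels, the 3 rarg.S probe sets lie more than 0.5 to the left only without cycloheximide, and cyp26a1.S, cyp26c1.S and dhrs3.L reach 3.06, 3.17 and 2.66 at the right.

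Marker genes of other tissues moved in the same comparisons. Of all probe sets, 0.221%, 0.289%, 1.28% and 2.21% were called higher in these 4 comparisons, in the same order. In Pax3+Zic1 caps 0.203% were called lower. The unblocked share called lower is not given for the other comparisons, so unblocked falls there cannot be set against it. In the blocked fit 0.839%, 2.17%, 7.87% and 9.15% were called higher, and 1.3%, 2.18%, 6.99% and 9.78% lower. Of 17 endoderm genes, 2 rose in Pax3 caps, 2 in Pax3+Zic1 caps, 7 in Pax3 caps with cycloheximide and 10 in Pax3+Zic1 caps with cycloheximide (blocked 8, 8, 10 and 13), and none fell. Their summed level, on the log2 scale, ran from 7.24 to 8.40 in control, 9.11 to 10.26 in Pax3, 8.27 to 9.68 in Pax3 and Zic1, 10.52 to 11.15 in Pax3 with cycloheximide and 9.27 to 10.51 in Pax3 and Zic1 with cycloheximide. Of 26 mesoderm genes 0, 1, 2 and 6 rose (blocked 1, 4, 5 and 10) and of 16 organizer and axial genes 2, 4, 4 and 5 (blocked 5, 5, 5 and 8, with 1 lower in Pax3 caps), in the same order, with a summed mesoderm level of 8.54 to 9.92 in control and 10.03 to 12.02 in Pax3 and Zic1 with cycloheximide. Of 17 neural plate genes 1, 1, 5 and 7 rose and 1 fell in the last group, and with the block 5, 4, 11 and 12 rose and 0, 1, 2 and 2 fell. Of 19 epidermis genes 0, 1, 3 and 8 fell (blocked 1, 4, 9 and 12) and 1 rose in each drug group in both fits. Their summed level was 14.33 to 14.76 in control and 13.36 to 14.14 in Pax3 and Zic1 with cycloheximide. The table gives no zero, so absence cannot be read, but 17 of the 19 epidermis genes had a mean above the median of all probe set means, against 5 of the 26 mesoderm, 5 of the 16 organizer and 7 of the 17 endoderm genes. In explants, fewer cells of a type and less RNA per cell cannot be told apart, and the part of these tissues in the results was not tested. The 11 housekeeping genes spanned a summed level of 14.08 to 14.32 over all samples, and against control 1 of them fell, in Pax3+Zic1 caps with cycloheximide. With the block 4 fell in Pax3 caps with cycloheximide and 3 in Pax3+Zic1 caps with cycloheximide, and none without the drug.

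Among the synthesis genes, aldh1a2.L was represented by 7 probe sets. In Xl2.8908.3.A1_at the control caps read 5.28, 5.59 and 4.55 in replicates 1, 2 and 3. Pax3 caps read 7.64, 7.84 and 6.99, and Pax3+Zic1 caps 6.42, 7.06 and 6.97. With cycloheximide the values were 6.87, 7.10 and 6.97 in Pax3 caps and 6.47, 6.47 and 6.69 in Pax3+Zic1 caps. All 12 factor samples lay above all 3 control samples, and the 2 groups with cycloheximide varied less than the control group, with SDs of 0.12 and 0.13 against 0.53. The probe set rose by 2.35 ± 0.27 in Pax3 caps (adjusted p 0.00655), a 5.1-fold change, and by 1.68 ± 0.27 in Pax3+Zic1 caps (0.02). With cycloheximide it rose by 1.84 ± 0.27 (0.00405) and 1.41 ± 0.27 (0.0115). The calls in Pax3 caps without and with cycloheximide held when each of the 15 samples was left out in turn, with adjusted p at most 0.0408 and 0.0191. In Pax3+Zic1 caps the call was lost without control replicate 1 or 3 or Pax3 and Zic1 replicate 2 or 3 (adjusted p 0.0628 to 0.118), and with cycloheximide it was lost without Pax3 and Zic1 with cycloheximide replicate 3 (adjusted p 0.0503). With only the groups compared in the fit, the calls in Pax3 caps (0.132) and Pax3+Zic1 caps (0.233) were lost. So was that in Pax3+Zic1 caps with cycloheximide (0.0737), while that in Pax3 caps with cycloheximide was kept. With the block the calls in Pax3 caps and in Pax3+Zic1 caps without the drug held with every sample left out, up to 0.00697 and 0.0181.

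The other probe sets of aldh1a2.L fell into those that rose and those that did not. In Xl2.8908.1.S1_at, control caps read 5.86, 6.11 and 5.08, Pax3 caps 6.44, 6.90 and 6.38 and Pax3 caps with cycloheximide 7.08, 7.46 and 7.14. Here the drug groups were the highest: it rose by 1.54 ± 0.26 in Pax3 caps with cycloheximide (adjusted p 0.00724) and by 1.40 ± 0.26 in Pax3+Zic1 caps with cycloheximide (0.00803), and both calls held with any sample left out (up to 0.0339 and 0.0358). Without the drug its difference from control was 0.89 ± 0.26 in Pax3 caps (0.36, blocked 0.0319), a blocked call lost without control replicate 3 or Pax3 replicate 1, 2 or 3 or Pax3 with cycloheximide replicate 2 (adjusted p 0.0525 to 0.148). Xl2.8908.2.S1_a_at rose by 1.12 ± 0.20 in Pax3 caps (0.0455), 1.11 ± 0.20 in Pax3 caps with cycloheximide (0.0117) and 0.92 ± 0.20 in Pax3+Zic1 caps with cycloheximide (0.0224). The first of these calls was lost without any 1 of 12 of the 15 samples (up to 0.194), though its blocked value was 0.00416. The second was lost without control replicate 3 or Pax3 with cycloheximide replicate 3 (adjusted p 0.0532 to 0.0584) and the third without control replicate 3 or Pax3 and Zic1 with cycloheximide replicate 2 or 3 (adjusted p 0.0805 to 0.093).

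Xl2.8908.1.S2_at differed from control by 2.07 ± 0.52 in Pax3 caps (0.21, blocked 0.0141), 1.55 ± 0.52 in Pax3+Zic1 caps (0.384, blocked 0.0402), 2.38 ± 0.52 in Pax3 caps with cycloheximide (0.0315) and 1.88 ± 0.52 in Pax3+Zic1 caps with cycloheximide (0.066, blocked 0.00493). Its call in Pax3 caps with cycloheximide was lost without control replicate 1, 2 or 3 or Pax3 with cycloheximide replicate 1 or 3 (adjusted p 0.0641 to 0.127). Its blocked calls without the drug were lost without control replicate 3 or Pax3 replicate 1 or 2 (adjusted p 0.0591 to 0.093) in Pax3 caps and without any 1 of 9 of the 15 samples (up to 0.196) in Pax3+Zic1 caps. In contrast, Xl2.2158.1.A1_at read 6.21, 4.36 and 6.44 in control caps and 5.76, 4.70 and 6.53 in Pax3 caps, with replicate 2 the lowest in all 5 groups, and its difference was -0.01 ± 0.69. Xl2.2158.2.S1_at and Xl2.8908.2.A1_at passed in no comparison in either fit and had means of 2.76 and 2.19 over all samples. Xl2.8908.3.A1_at and Xl2.8908.2.S1_a_at correlated with r 0.90 over the 15 samples and the pair of the Xl2.2158 series with r 0.95, while Xl2.2158.1.A1_at and Xl2.8908.1.S1_at had r -0.68. All 7 carry the symbol aldh1a2.L in the annotation, and which of them reports the transcript faithfully was not tested. The summed level of endoderm genes, given above, was above the control range in every Pax3 sample with and without cycloheximide. It was also above that range in Pax3+Zic1 caps with cycloheximide. In Pax3+Zic1 caps without the drug its range (8.27 to 9.68) overlapped that of control (7.24 to 8.40). The part of these genes in the aldh1a2.L values was not tested.

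**Figure D2:**
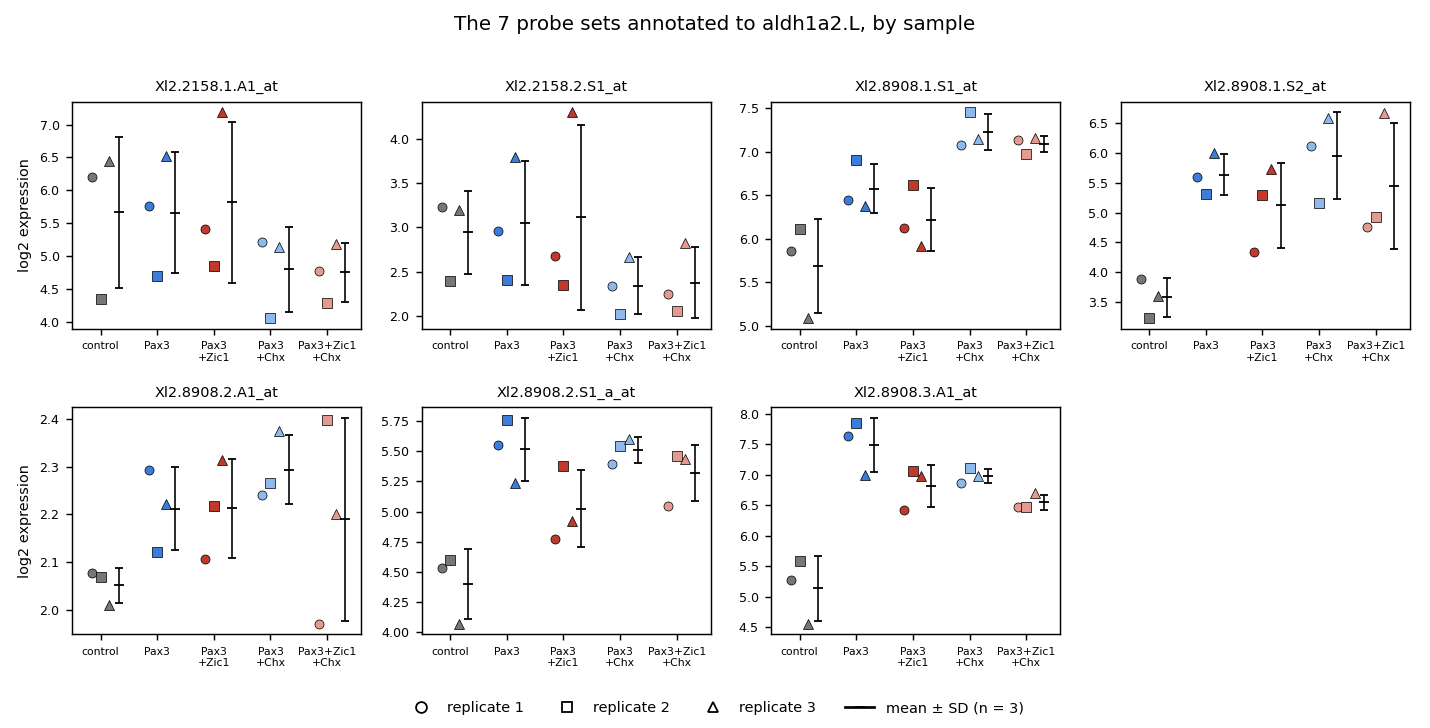
Log2 expression of each of the 7 probe sets annotated to aldh1a2.L (vertical axes, each panel with its own range) in the 5 groups, with 1 symbol per replicate number and the mean with its SD beside it (n = 3). In Xl2.8908.3.A1_at every factor sample is above the control samples, whereas in Xl2.2158.1.A1_at replicate 2 is the lowest of every group and the control and Pax3 samples overlap.

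Zic1 added to Pax3 gave no call for any of the 7 aldh1a2.L probe sets, whose differences lay between -0.67 and 0.16 without and between -0.51 and 0.03 with cycloheximide. In Xl2.8908.3.A1_at the difference between Pax3+Zic1 caps and Pax3 caps was -0.67 ± 0.27 (95% confidence interval -1.27 to -0.07), with -1.21, -0.78 and -0.02 in replicate numbers 1, 2 and 3, and with cycloheximide it was -0.44 ± 0.27 (-1.03 to 0.16), with -0.40, -0.63 and -0.28. The adjusted p was 0.941, blocked 0.229 without and 1, blocked 0.722 with the drug, so neither difference passed, and a missed threshold does not show that the groups are alike.

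The retinol-oxidising enzyme gave opposite signs for its 2 copies in the drug groups. In rdh10.L the control caps read 8.02, 8.84 and 8.24, Pax3 caps 7.45, 8.76 and 7.83 and Pax3 caps with cycloheximide 7.37, 7.67 and 7.0, and replicate 2 was the highest in all 5 groups. In rdh10.S the same groups read 6.21, 5.7 and 6.33, 6.35, 5.65 and 6.30 and 7.33, 6.50 and 7.03, and replicate 2 was the lowest in all 5. For rdh10.L the difference from control was -1.02 ± 0.32 in Pax3 caps with cycloheximide (0.155, blocked 0.00226) and -0.91 ± 0.32 in Pax3+Zic1 caps with cycloheximide (0.163, blocked 0.00328). For rdh10.S it was 0.87 ± 0.34 (0.279, blocked 0.00119) and 0.67 ± 0.34 (0.377, blocked 0.00406). Both copies therefore passed in the blocked fit alone, and there with every sample left out (up to 0.0179 for rdh10.L and 0.0263 for rdh10.S), rdh10.L lower and rdh10.S higher. Without the drug neither passed in either fit, with differences of -0.35 and -0.61 for rdh10.L and 0.02 and -0.13 for rdh10.S.

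dhrs3.L, the reductase that works against synthesis, followed another order from aldh1a2.L. In Xl2.13360.1.S1_at control caps read 6.80, 6.45 and 5.90 and Pax3 caps 6.31, 7.38 and 6.27, which overlap. Pax3+Zic1 caps read 7.52, 8.66 and 7.83, all above control. With cycloheximide the values were 8.37, 8.78 and 7.59 in Pax3 caps and 8.78, 9.85 and 8.51 in Pax3+Zic1 caps, again all above control. It rose by 2.66 ± 0.45 in Pax3+Zic1 caps with cycloheximide (adjusted p 0.00516), a 6.34-fold change, and this call held with any sample left out (up to 0.0276). In the blocked fit alone it was higher in Pax3 caps with cycloheximide, by 1.86 ± 0.45 (0.0534, blocked 0.000764), and in Pax3+Zic1 caps without it, by 1.62 ± 0.45 (0.218, blocked 0.00479). In Pax3 caps without the drug the difference was 0.27 ± 0.45 and did not pass.

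**Figure D3:**
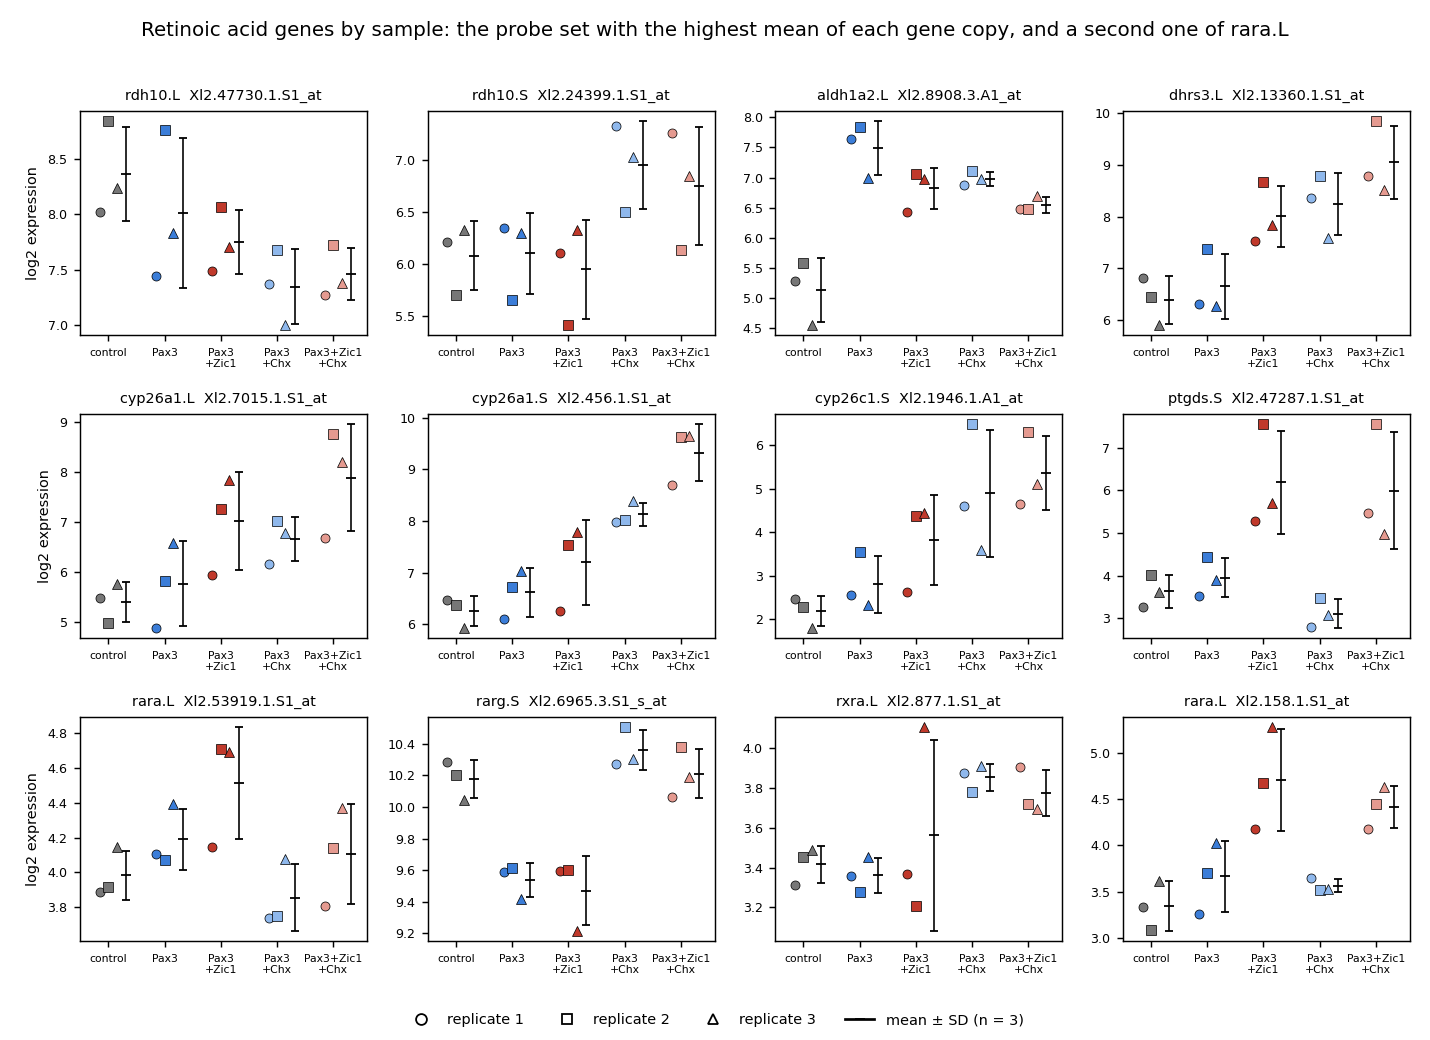
Log2 expression (vertical axes, each with its own range) of the probe set with the highest mean of each of the 11 gene copies, and of a second rara.L probe set, in the 5 groups, with 1 symbol per replicate number and the mean with its SD beside it (n = 3). aldh1a2.L is raised in all factor groups, dhrs3.L and the cyp26 genes are highest in the group with Zic1 and cycloheximide, ptgds.S is high in the groups with Zic1, and rarg.S is low in the 2 factor groups without cycloheximide.

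The breakdown genes were highest where both factors and cycloheximide came together. In cyp26a1.S, Xl2.456.1.S1_at, control caps read 6.48, 6.38 and 5.93, Pax3 caps 6.10, 6.72 and 7.04 and Pax3+Zic1 caps 6.26, 7.54 and 7.79. With cycloheximide the values were 7.98, 8.02 and 8.39 in Pax3 caps and 8.69, 9.63 and 9.65 in Pax3+Zic1 caps, so that every drug sample lay above every sample without the drug and the 2 drug groups did not overlap each other. The probe set rose by 1.87 ± 0.39 in Pax3 caps with cycloheximide (adjusted p 0.0258) and by 3.06 ± 0.39 in Pax3+Zic1 caps with cycloheximide (0.000954), an 8.34-fold change. The second call held with any sample left out (up to 0.0062). The first was lost without any 1 of the 3 control samples or the 3 of its own group (up to 0.115), though its blocked value was 0.00184. Without the drug the differences from control were 0.36 ± 0.39 in Pax3 caps and 0.93 ± 0.39 in Pax3+Zic1 caps (0.612, blocked 0.12), and neither passed. The second probe set of this gene, Xl2.50113.2.A1_a_at, lay lower (mean 3.33), correlated with the first at r 0.46 and passed in no comparison.

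The other copy, cyp26a1.L, read 5.47, 4.97 and 5.76 in control caps, 4.87, 5.82 and 6.58 in Pax3 caps and 5.94, 7.26 and 7.85 in Pax3+Zic1 caps. With cycloheximide it read 6.16, 7.01 and 6.79 in Pax3 caps and 6.69, 8.77 and 8.20 in Pax3+Zic1 caps. Replicate 1 was the lowest of every factor group, and in Pax3 caps the range overlapped that of control. It rose in Pax3+Zic1 caps with cycloheximide by 2.49 ± 0.60 (0.0338), a call lost without control replicate 1, 2 or 3 or Pax3 and Zic1 with cycloheximide replicate 2 or 3 (adjusted p 0.0708 to 0.127). Blocked values alone passed in Pax3+Zic1 caps (1.62 ± 0.60, 0.483, blocked 0.0354) and in Pax3 caps with cycloheximide (1.25 ± 0.60, 0.415, blocked 0.0468), and these were lost without any 1 of 8 of the 15 samples (up to 0.151) and 10 of the 15 samples (up to 0.18).

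cyp26c1.S, a second enzyme of the same family, neighbours cyp26a1.S in the RefSeq gene table with no gene between them, as cyp26c1.L does cyp26a1.L. In Xl2.1946.1.A1_at control caps read 2.47, 2.29 and 1.80, Pax3 caps 2.55, 3.56 and 2.32 and Pax3+Zic1 caps 2.62, 4.37 and 4.44. With cycloheximide the values were 4.59, 6.49 and 3.59 in Pax3 caps and 4.66, 6.30 and 5.10 in Pax3+Zic1 caps. All 6 drug samples lay above control, with a wide spread: the SD was 1.47 in Pax3 caps with cycloheximide and 0.35 in control. It rose by 3.17 ± 0.71 in Pax3+Zic1 caps with cycloheximide (0.0235), a call lost without control replicate 1, 2 or 3 or Pax3 and Zic1 with cycloheximide replicate 2 or 3 (adjusted p 0.0583 to 0.0897), and was higher by 2.71 ± 0.71 in Pax3 caps with cycloheximide (0.073, blocked 0.00457). The other 2 probe sets, Xl2.1946.2.S1_at and Xl2.55931.1.S1_at, had means of 2.71 and 2.15 and passed in no comparison in either fit. In Pax3 caps with cycloheximide 5 of 17 neural plate, 7 of 17 endoderm and 2 of 26 mesoderm genes rose (blocked 11, 10 and 5). In Pax3+Zic1 caps with cycloheximide 7, 10 and 6 rose (blocked 12, 13 and 10). Of all probe sets 1.28% and 2.21% rose (blocked 7.87% and 9.15%). Of the neural plate genes 0 and 1 fell (blocked 2 and 2, against 6.99% and 9.78% of all probe sets). The part of these lists in the cyp26 values was not tested.

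ptgds.S encodes the lipocalin-type prostaglandin D synthase, a secreted protein that also binds retinoids and is known from work on Zic1 in Xenopus as a carrier of retinoic acid. In Xl2.47287.1.S1_at control caps read 3.26, 4.03 and 3.62 and Pax3 caps 3.52, 4.43 and 3.91. Pax3+Zic1 caps read 5.29, 7.55 and 5.71. With cycloheximide Pax3 caps read 2.80, 3.47 and 3.07 and Pax3+Zic1 caps 5.46, 7.54 and 4.98. All 6 samples with the Zic1-GR construct lay above all 9 without it, and replicate 2 was the highest sample in all 5 groups. The difference from control was 2.55 ± 0.65 in Pax3+Zic1 caps (0.152, blocked 0.00328) and 2.36 ± 0.65 with cycloheximide (0.0636, blocked 0.00128). In Pax3 caps it was 0.32 ± 0.65 without and -0.52 ± 0.65 with cycloheximide, and neither passed. The gene thus passed in the blocked fit alone, and there with every sample left out in both Zic1 groups (up to 0.0211 and 0.00779).

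Of the receptors, rara.L was higher with Zic1 and rarg.S lower with either factor combination in the absence of cycloheximide. In the rara.L probe set Xl2.158.1.S1_at control caps read 3.34, 3.08 and 3.62, Pax3 caps 3.26, 3.70 and 4.03 and Pax3+Zic1 caps 4.18, 4.67 and 5.28. With cycloheximide the values were 3.65, 3.52 and 3.53 in Pax3 caps and 4.18, 4.44 and 4.63 in Pax3+Zic1 caps. All samples with Zic1 lay above control and above the Pax3 samples of the same drug state. It rose by 1.36 ± 0.26 in Pax3+Zic1 caps (0.0478, blocked 0.00249) and by 1.07 ± 0.26 with cycloheximide (0.0382, blocked 0.00241). Both unblocked values lie close to the threshold and were lost without any 1 of 13 of the 15 samples (up to 0.172) and 11 of the 15 samples (up to 0.15). The blocked calls held with every sample left out (up to 0.0162 and 0.0141). A second probe set, Xl2.53919.1.S1_at, differed by 0.53 ± 0.19 in Pax3+Zic1 caps (0.444, blocked 0.0259, a blocked call lost without control replicate 2 or 3 or Pax3 and Zic1 replicate 2 or 3 (adjusted p 0.0545 to 0.116)) and by 0.12 ± 0.19 with cycloheximide, which passed in neither fit, and the third, Xl2.45046.1.S1_at, passed in no comparison.

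rarg.S, a second receptor of the RAR family, was lower with both factor combinations and close to control where cycloheximide was present. In Xl2.6965.3.S1_s_at control caps read 10.28, 10.20 and 10.05, Pax3 caps 9.59, 9.61 and 9.42 and Pax3+Zic1 caps 9.59, 9.60 and 9.22, with no overlap between control and either. With cycloheximide Pax3 caps read 10.27, 10.51 and 10.31 and Pax3+Zic1 caps 10.07, 10.38 and 10.19, which overlap the control range. It fell by 0.71 ± 0.14 in Pax3+Zic1 caps (0.0478, blocked 0.00367), a call lost without any 1 of 14 of the 15 samples (up to 0.184) in the unblocked fit and kept with every sample left out in the blocked fit (up to 0.021). In Pax3 caps the difference was -0.64 ± 0.14 (0.108, blocked 0.00872). The probe sets Xl2.6965.3.S1_x_at and Xl2.53934.1.A1_at gave -0.61 ± 0.17 (0.29, blocked 0.0387) and -0.69 ± 0.20 (0.4, blocked 0.0158) in Pax3 caps and -0.74 ± 0.17 (0.0891, blocked 0.00948) and -0.77 ± 0.20 (0.181, blocked 0.00635) in Pax3+Zic1 caps. The blocked call of Xl2.53934.1.A1_at in Pax3 caps was lost without control replicate 1 or 3 or Pax3 replicate 1 (adjusted p 0.0805 to 0.0876), that of Xl2.6965.3.S1_x_at in Pax3 caps without any 1 of 10 of the 15 samples (up to 0.187) and in Pax3+Zic1 caps without control replicate 3 (adjusted p 0.0534). Xl2.6965.3.S1_x_at and Xl2.6965.3.S1_s_at are built on one transcript record and correlated with r 0.99, so they are not independent of each other, and Xl2.53934.1.A1_at correlated with Xl2.6965.3.S1_s_at at r 0.90. With cycloheximide the differences of Xl2.6965.3.S1_s_at from control were 0.18 ± 0.14 and 0.03 ± 0.14, and neither passed in either fit. Epidermis genes had a median difference from control of -0.76 in Pax3 caps and -0.95 in Pax3+Zic1 caps, and of -0.62 and -0.94 with cycloheximide. rxra.L had samples between 3.21 and 4.11, and passed in no comparison in either fit.

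The comparison of Pax3+Zic1 caps with Pax3 caps is matched for hormone and drug, but the former received a second construct, and both pax3.S probe sets were higher there in the blocked fit alone without cycloheximide, by 1.15 ± 0.51 (1, blocked 0.0261) and 0.99 ± 0.49 (1, blocked 0.0411). With cycloheximide the pax3.S differences were 0.45 ± 0.51 (1, blocked 0.586) and 0.52 ± 0.49 (1, blocked 0.423). The pax3.L probe set that rose in Pax3 caps, Xl2.45266.1.S2_at, passed in neither fit here. Its differences were 0.56 ± 0.49 (blocked 0.331) without and 0.17 ± 0.49 (blocked 0.985) with the drug. The part of these pax3 values in the member differences was not tested. The comparison gave no member call in the unblocked fit, where 0.0184% of all probe sets were called without cycloheximide and 0.0338% with it, in either direction. At an unadjusted p under 0.05 there were 5 of 24 members without and 4 with the drug, against 4.88% and 3.13% of all probe sets. The blocked fit called 3 of 24 members higher without the drug, against 0.759% of all probe sets, and 1 with it, against 0.544%. These were ptgds.S, by 2.23 ± 0.65 (0.503, blocked 0.0181), dhrs3.L, by 1.35 ± 0.45 (0.704, blocked 0.0309), and rara.L in Xl2.158.1.S1_at, by 1.04 ± 0.26 (0.336, blocked 0.0261). With cycloheximide it was ptgds.S alone, by 2.88 ± 0.65 (0.267, blocked 0.00676), a call that held with every sample left out (up to 0.0395). The calls without the drug were lost when 1 sample was left out: that of ptgds.S without Pax3 replicate 1, 2 or 3 or Pax3 and Zic1 replicate 2 (adjusted p 0.0614 to 0.115), that of rara.L without Pax3 replicate 1, 2 or 3 or Pax3 and Zic1 replicate 2 or 3 (adjusted p 0.0709 to 0.109), and that of dhrs3.L without any 1 of 6 of the 15 samples (up to 0.13).

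Within the replicate numbers 1, 2 and 3, ptgds.S differed by 1.77, 3.12 and 1.80 without and 2.66, 4.07 and 1.91 with cycloheximide. dhrs3.L differed by 1.21, 1.28 and 1.57 and 0.42, 1.07 and 0.93, and rara.L by 0.91, 0.97 and 1.25 and 0.53, 0.92 and 1.10. All of these are positive. cyp26a1.L was also higher in every number, by 1.06, 1.44 and 1.27 without (1, blocked 0.161) and 0.53, 1.76 and 1.42 with the drug (1, blocked 0.25), but did not pass. Both cyp26a1.S probe sets and the other rara.L probe sets were likewise higher in every number, with and without the drug, and passed in neither fit. Groups did not overlap for 3 members without the drug, all higher, where 4.34% of all probe sets were, and for 5 higher and 1 lower with it, where 3.15% and 2.81% were. Mesoderm genes had a median difference of 0.28 without and 1.11 with cycloheximide in the same comparisons, with 0 of 26 called in either (blocked 0 and 3). Organizer and axial genes had a median of 0.55 and 0.81, with 14 and 15 of 16 higher and 0 called in either (blocked 1 and 2). The part of both lists in the member differences was not tested.

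**Figure D4:**
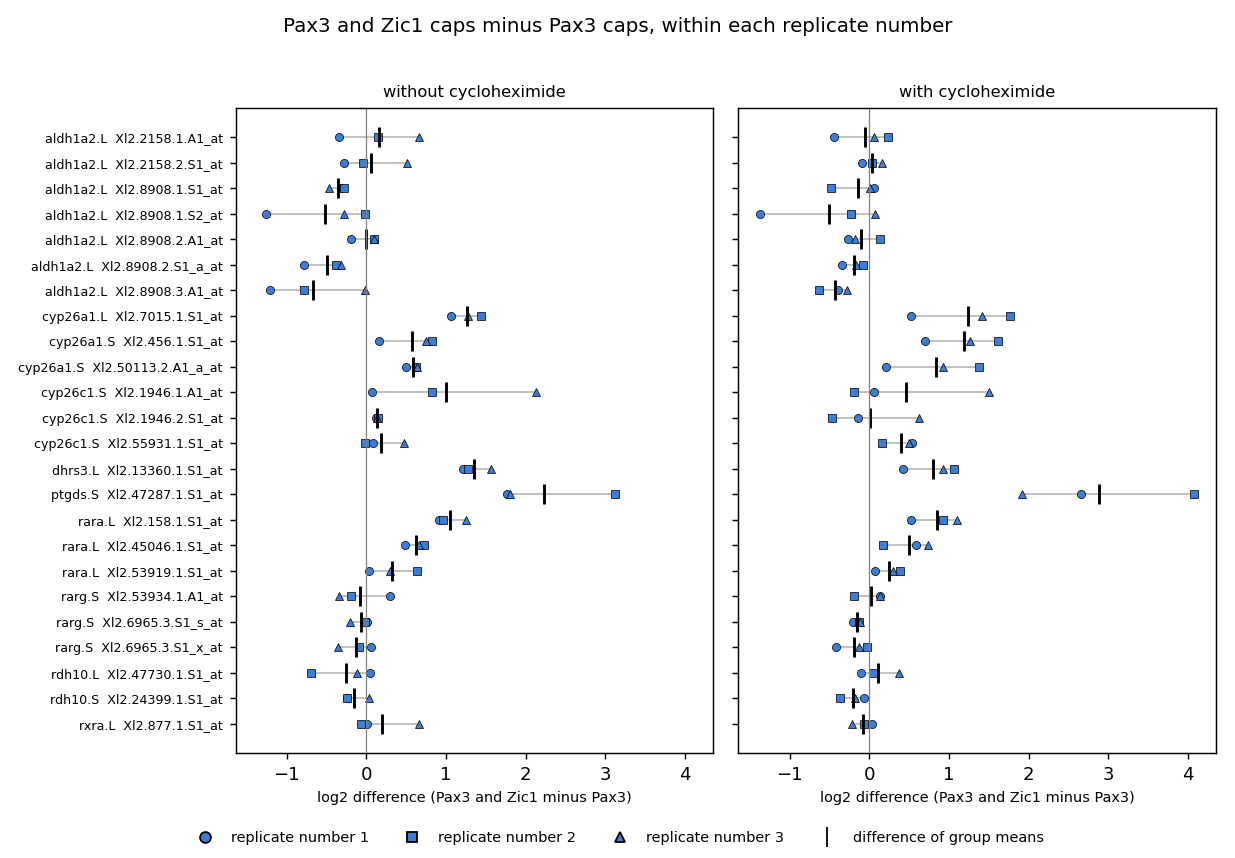
Log2 difference between Pax3+Zic1 caps and Pax3 caps (horizontal axis) for each of the 24 probe sets (rows), without and with cycloheximide, with 1 symbol for each replicate number and a bar at the difference of group means. ptgds.S stands furthest to the right in both panels, at 2.23 and 2.88. dhrs3.L and all probe sets of rara.L, cyp26a1.L and cyp26a1.S are above 0 in every number, while Xl2.8908.3.A1_at of aldh1a2.L is at -0.67 and -0.44.

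Caps with and without cycloheximide were also compared at the same constructs. Of 24 members 2 were called in Pax3 caps and 3 in Pax3+Zic1 caps, all higher, against 0.504% and 0.842% of all probe sets called higher. The blocked fit called 8 higher and 1 lower in Pax3 caps, against 5.46% and 5.02%, and 7 higher and 2 lower in Pax3+Zic1 caps, against 7.98% and 8.45%. All 3 drug samples lay above the 3 without for 10 members in Pax3 caps and 7 in Pax3+Zic1 caps, where 6.57% and 5.96% of all probe sets did, and below them for 1 and 0, where 9.98% and 9.41% did. The pax3 and zic1 RNA was not equal there. pax3.L Xl2.45266.1.S2_at was higher with the drug by 1.43 ± 0.49 in Pax3 caps (0.283, blocked 0.00554) and 1.04 ± 0.49 in Pax3+Zic1 caps (0.38, blocked 0.0172). zic1.S Xl2.1796.1.S2_at was higher by 1.05 ± 0.29 (0.148, blocked 0.0188) and 1.36 ± 0.29 (0.0369, blocked 0.00403). Xl2.1796.1.S1_at passed in the blocked fit alone, by 0.71 and 0.72. The other pax3 probe sets passed in neither fit. The part of this in the member differences was not tested. rarg.S rose with the drug in Xl2.6965.3.S1_s_at, by 0.82 ± 0.14 in Pax3 caps (0.0158) and 0.74 ± 0.14 in Pax3+Zic1 caps (0.019), and no drug sample overlapped the samples without the drug. These calls were lost without Pax3 replicate 1 or 3 or Pax3 with cycloheximide replicate 1, 2 or 3 (adjusted p 0.0501 to 0.0957) and without Pax3 and Zic1 replicate 3 or Pax3 and Zic1 with cycloheximide replicate 2 or 3 (adjusted p 0.0692 to 0.071), and their blocked values were 0.00121 and 0.00149. Xl2.6965.3.S1_x_at, which shares its transcript record, gave 0.80 ± 0.17 (0.0485) and 0.74 ± 0.17 (0.0484), lost without any 1 of 11 of the 15 samples (up to 0.214) and 13 of the 15 samples (up to 0.156). The third, Xl2.53934.1.A1_at, was higher in the blocked fit alone, by 0.62 ± 0.20 (0.246, blocked 0.0119) and 0.73 ± 0.20 (0.112, blocked 0.00399), the first of these lost without Pax3 replicate 1 or Pax3 with cycloheximide replicate 2 (adjusted p 0.0511 to 0.0642).

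cyp26a1.S rose with the drug by 2.13 ± 0.39 in Pax3+Zic1 caps (0.019), a call lost without Pax3 and Zic1 with cycloheximide replicate 2 or 3 (adjusted p 0.0659 to 0.0909), and in Pax3 caps the difference was 1.51 ± 0.39 (0.119, blocked 0.01). cyp26c1.S Xl2.1946.1.A1_at was higher in Pax3 caps in the blocked fit alone, by 2.08 ± 0.71 (0.273, blocked 0.0251), lost without Pax3 replicate 1, 2 or 3 or Pax3 with cycloheximide replicate 1 or 2 (adjusted p 0.0704 to 0.123). So was dhrs3.L, by 1.59 ± 0.45 in Pax3 caps (0.165, blocked 0.00377) and 1.04 ± 0.45 in Pax3+Zic1 caps (0.326, blocked 0.019), the latter lost without Pax3 and Zic1 replicate 1 or Pax3 and Zic1 with cycloheximide replicate 2 or 3 (adjusted p 0.0534 to 0.0706). rdh10.S behaved likewise, by 0.85 ± 0.34 (0.38, blocked 0.00275) and 0.80 ± 0.34 (0.312, blocked 0.00262), and rdh10.L was lower by 0.66 ± 0.32 in Pax3 caps (0.513, blocked 0.0298), lost without Pax3 replicate 2 or 3 or Pax3 with cycloheximide replicate 2 or 3 (adjusted p 0.0911 to 0.131). ptgds.S had differences of -0.84 ± 0.65 and -0.19 ± 0.65, which did not pass, although its 3 Pax3 samples with the drug lay below the 3 without it. The aldh1a2.L probe set Xl2.8908.3.A1_at had -0.51 ± 0.27 and -0.27 ± 0.27, which did not pass either, whereas Xl2.8908.1.S1_at of the same gene was higher with the drug in the blocked fit, by 0.65 ± 0.26 (0.378, blocked 0.0495) and 0.87 ± 0.26 (0.135, blocked 0.0112), lost without any 1 of 11 of the 15 samples (up to 0.175) and without Pax3 and Zic1 with cycloheximide replicate 3 (adjusted p 0.0605). Xl2.2158.1.A1_at was lower by 1.06 ± 0.69 in Pax3+Zic1 caps in that fit (0.542, blocked 0.041), and rara.L Xl2.53919.1.S1_at by 0.41 ± 0.19 (0.365, blocked 0.0353), lost without any 1 of 9 of the 15 samples (up to 0.172) and 6 of the 15 samples (up to 0.127). Of 11 housekeeping genes 0 and 1 fell with the drug in the same comparisons (blocked 4 and 4), with a median difference of -0.15 and -0.13. The blocked fit called 5.02% and 8.45% of all probe sets lower there, and the unblocked share called lower is not given.

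Whether the drug difference itself depended on Zic1 was tested as an interaction. No member passed in either fit, where limma called 0 of all probe sets in both fits. At an unadjusted p under 0.05 there were 0 of 24 members in either fit. Of all probe sets 0.593% were under it without the block, and 778 of 32539 with it. For cyp26a1.S the interaction was 0.62 ± 0.55 (95% confidence interval -0.59 to 1.82), for dhrs3.L -0.55 ± 0.64 (-1.94 to 0.84) and for ptgds.S 0.65 ± 0.92 (-1.34 to 2.64).

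**Figure D5:**
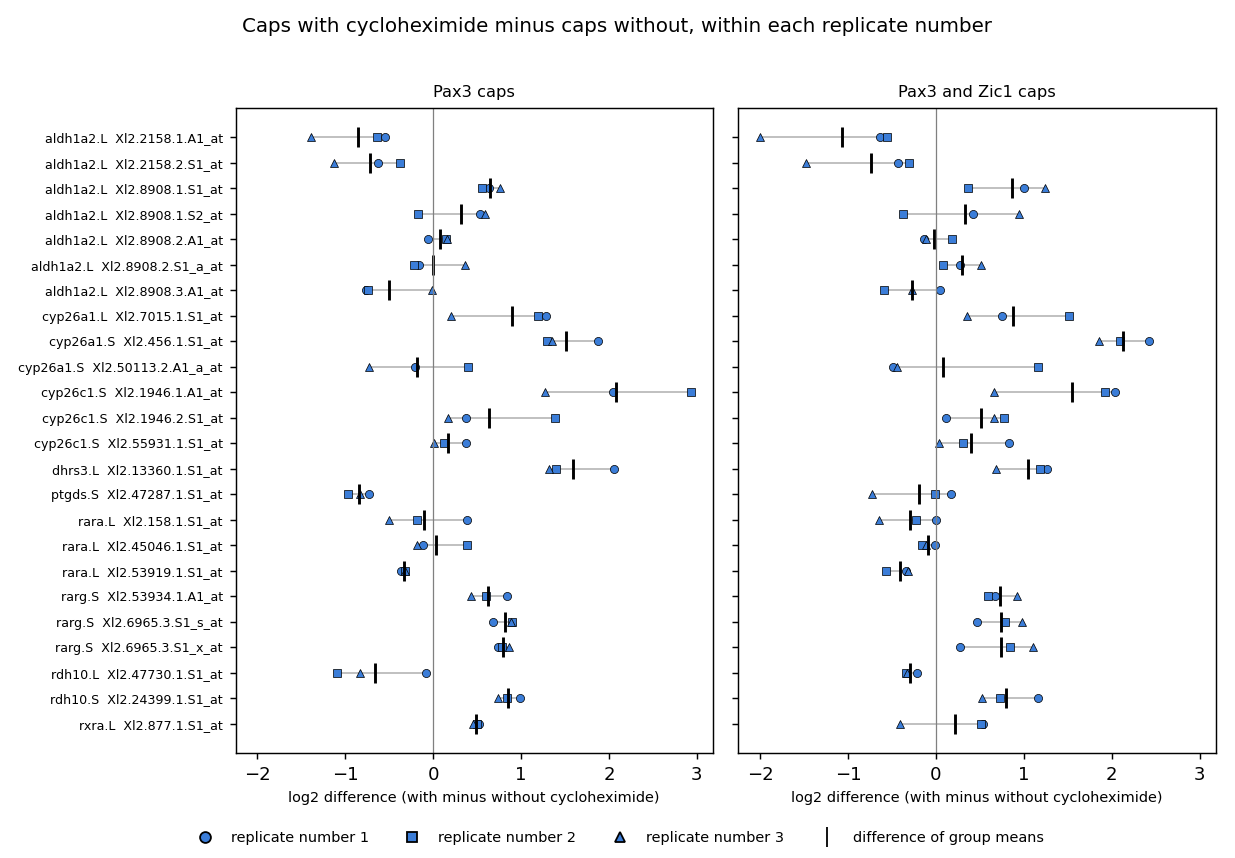
Log2 difference between caps with and without cycloheximide (horizontal axis) for each of the 24 probe sets (rows), in Pax3 caps and in Pax3+Zic1 caps, with 1 symbol for each replicate number and a bar at the difference of group means. cyp26a1.S Xl2.456.1.S1_at, dhrs3.L, rdh10.S and the 3 rarg.S probe sets lie to the right in both panels in every number, and Xl2.8908.3.A1_at of aldh1a2.L lies at -0.51 and -0.27.

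Groups ordered the members differently. For aldh1a2.L Xl2.8908.3.A1_at the means ran from Pax3 (7.49 ± 0.45, SD, n = 3) over Pax3 with cycloheximide (6.98 ± 0.12), Pax3 and Zic1 (6.82 ± 0.35) and Pax3 and Zic1 with cycloheximide (6.55 ± 0.13) to control (5.14 ± 0.53), and the ranges of neighbours among the 4 factor groups overlapped. For cyp26a1.S the order was Pax3 and Zic1 with cycloheximide (9.32 ± 0.55), Pax3 with cycloheximide (8.13 ± 0.22), Pax3 and Zic1 (7.20 ± 0.82), Pax3 (6.62 ± 0.48) and control (6.26 ± 0.29), where the last 3 overlapped. ptgds.S had Pax3 and Zic1 (6.19 ± 1.20) and the same with cycloheximide (6.0 ± 1.36) at the top, which overlapped, then Pax3 (3.96 ± 0.46), control (3.63 ± 0.38) and Pax3 with cycloheximide (3.11 ± 0.34). rarg.S Xl2.6965.3.S1_s_at had Pax3 with cycloheximide (10.36 ± 0.13), Pax3 and Zic1 with cycloheximide (10.21 ± 0.16) and control (10.18 ± 0.12) together, above Pax3 (9.54 ± 0.11) and Pax3 and Zic1 (9.47 ± 0.22).

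The replicate number took very different shares of the variation. Of the sum of squares over the 15 samples, groups held 90% in rarg.S Xl2.6965.3.S1_s_at, 88.1% in aldh1a2.L Xl2.8908.3.A1_at and 87.2% in cyp26a1.S, and the replicate number held 5.53%, 3.6% and 5.96%. In aldh1a2.L Xl2.2158.1.A1_at the number held 58.9% and the groups 27.3%, and in rara.L Xl2.45046.1.S1_at 50.8% and 36.2%. The 2 rdh10 copies had 35.9% (rdh10.L) and 40.3% (rdh10.S) by number, with replicate 2 at opposite ends. In 3 members, rdh10.L, ptgds.S and rarg.S Xl2.53934.1.A1_at, replicate 2 was the highest in every group. The labels do not say what the number stands for beyond a biological replicate.

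Beyond the members, 22 further genes of the retinoid pathway, each by its probe set with the highest mean, gave no call in any of the 9 comparisons in limma's unblocked fit, where 6 of the 198 gene and comparison pairs had an unadjusted p under 0.05, against 8.08% of all probe sets over the same comparisons. With the block 5 of them passed somewhere by that probe set. lrat.L, which stores retinol as ester, was higher by 0.94 ± 0.49 in Pax3 caps with cycloheximide against control (0.461, blocked 0.0348), and by 1.51 ± 0.49 and 1.70 ± 0.49 for the drug in Pax3 and in Pax3+Zic1 caps (blocked 0.00586 and 0.00225). The receptor gene rxrb.S had -0.38 ± 0.25 in Pax3 caps with cycloheximide (blocked 0.025), and with the drug -0.36 ± 0.25 in Pax3 caps and -0.38 ± 0.25 in Pax3+Zic1 caps (blocked 0.043 and 0.025). For the drug in Pax3+Zic1 caps rxrb.L gave -0.28 ± 0.21 (blocked 0.0486) and rxrg.L 1.11 ± 0.53 (blocked 0.0499). ncoa3.S, a coactivator of nuclear receptors, was higher by 0.47 ± 0.32 in Pax3+Zic1 caps with cycloheximide against control (blocked 0.0254). Of the 22 genes, 1 was thus higher and 1 lower in Pax3 caps with cycloheximide against control, where 7.87% and 6.99% of all probe sets were. In Pax3+Zic1 caps with the drug 1 was higher, against 9.15%. For the drug 1 was higher and 1 lower in Pax3 caps (5.46% and 5.02%), and 2 and 2 in Pax3+Zic1 caps (7.98% and 8.45%). The median difference of these 22 genes from control was 0.03, 0.09, 0.04 and 0.09 in Pax3, Pax3 and Zic1, and the same with cycloheximide. Over all 29 probe sets of these genes, the blocked fit called 4 higher in Pax3+Zic1 caps with cycloheximide against control (9.15% of all probe sets). It called 1 higher in Pax3+Zic1 caps without the drug (2.17%). For added Zic1 it called 1 higher without and 1 with cycloheximide (0.759% and 0.544%).

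Of 21 genes known to respond to retinoic acid in vertebrate embryos, such as hox, cdx and meis genes, none passed against control in limma's unblocked fit, where 17 of 84 pairs of gene and comparison with control had an unadjusted p under 0.05, against 9.96% of all probe sets. meis3.L, a homeobox gene of the hindbrain, was the only one to pass in any comparison in that fit, higher by 1.05 ± 0.21 with cycloheximide in Pax3+Zic1 caps (0.0297). With the block, 1 of the 21 rose and 1 fell in Pax3 caps, where 0.839% and 1.3% of all probe sets did, and 4 rose and 1 fell in Pax3+Zic1 caps, against 2.17% and 2.18%. With cycloheximide 2 rose in Pax3 caps, against 7.87%, and 4 rose and 1 fell in Pax3+Zic1 caps, against 9.15% and 9.78%. nr2f1.L, an orphan nuclear receptor gene (COUP-TFI), had the largest of these differences, 2.14 ± 0.58 in Pax3 caps (0.277, blocked 0.00834) and 2.72 ± 0.58 in Pax3+Zic1 caps (0.0704, blocked 0.00179), and 1.56 ± 0.58 and 1.77 ± 0.58 with cycloheximide (blocked 0.0128 and 0.00508). Its copy nr2f1.S gave 2.16 ± 0.57 in Pax3+Zic1 caps (blocked 0.00688) and 1.48 ± 0.57 with cycloheximide (blocked 0.0161).

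The calls among the rest of these genes were uneven. meis2.L, a homeobox gene of the same family as meis3, was higher by 1.68 ± 0.39 in Pax3+Zic1 caps (blocked 0.0206) and znf703.S by 0.73 ± 0.22 (blocked 0.0169), with 0.60 ± 0.22 under cycloheximide (blocked 0.0157). cdx2.L, a caudal gene of the posterior body, was above control only with the drug among the blocked calls, by 1.05 ± 0.94 in Pax3 caps (blocked 0.0132) and 1.06 ± 0.94 in Pax3+Zic1 caps (blocked 0.00994). meis3.S had -1.01 ± 0.26 in Pax3 caps and -0.97 ± 0.26 in Pax3+Zic1 caps (blocked 0.025 and 0.0214), the opposite sign of nr2f1.L, and tgm2.L -0.53 ± 0.22 in Pax3+Zic1 caps with cycloheximide (blocked 0.0422). For the drug itself, the blocked fit called cdx2.L (1.34 ± 0.94 in Pax3 caps, 1.06 ± 0.94 in Pax3+Zic1 caps), meis3.L (0.89 ± 0.21 and 1.05 ± 0.21) and meis3.S (0.91 ± 0.26 and 0.93 ± 0.26) higher in both, and meis2.L lower in Pax3+Zic1 caps (-1.55 ± 0.39). The median difference of the 21 genes from control was 0.00, 0.21, 0.01 and 0.18 in the 4 factor groups in the same order. Between Pax3+Zic1 and Pax3 caps 19 of the 21 were higher without cycloheximide and 19 with it. Their median differences there were 0.29 and 0.17, against -0.004 and -0.02 over all probe sets. None of the 21 passed in either fit in these 2 comparisons.

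The genes whose values over the 15 samples were most like those of 4 members were looked up among 11302 other genes, each by its probe set with the highest mean. The 3 with the highest Pearson correlation to aldh1a2.L Xl2.8908.3.A1_at were arrdc2.S (r 0.95), syn2.S (r 0.92) and irx3.L (r 0.91). For cyp26a1.S they were rasgef1a.L (r 0.97), schip1.S (r 0.96) and epha4.S (r 0.95), for rarg.S Xl2.6965.3.S1_s_at fgfr4.S (r 0.97), pim1.L (r 0.95) and inka1.L (r 0.93), and for ptgds.S bcat1.S (r 0.94), en1.L (r 0.92) and tcf15.L (r 0.92). With group means removed, the correlations of the first of each were 0.85, 0.81, 0.82 and 0.92. All of these share arrays, groups and replicate numbers, and are given as a description.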

How the data were processed

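RNA of 16 Affymetrix arrays of Xenopus laevis animal caps was compared, 15 biological samples in 5 groups of 3. Arrays 2.1 and 2.2 of the Pax3+Zic1 group share a biological replicate number, and their mean was used. Total RNA was isolated with Trizol and columns, per the labels' protocols. The deposited values are taken as log2 expression per probe set, a scale read from the values. The submitters' processing notes name R 2.14.2, while the sources used here do not give the background correction, normalization or summary. No depth applies to arrays, and their number limits the precision.

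The 96 Affymetrix control rows were left out of 32635, and no other filter, scaling or pseudocount was used. The platform annotation paired a single symbol with 15495 probe sets, several for 279 and none for 16765, and 15384 of the first were found by gene identifier in the RefSeq genes of Xenopus_laevis_v10.1, used for names and neighbours only. Group means of all 5 groups were fitted with limma 3.58.1 (lmFit and eBayes, R 4.3.3, with data.table at version 1.17.8), residual degrees of freedom 10 and prior 2.17, two-sided, Benjamini-Hochberg within each of 9 comparisons. The scripts were tested on simulated data. With group means removed, samples of one replicate number correlated at 0.43 to 0.86, and all 15 correlated best with their own number, so a fit with the number as a block is given beside it (residual degrees of freedom 8). The alternatives were single arrays, other scalings, a filter on level, other variance settings and each sample left out in turn. For the blocked fit only the last of these was run.

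Named genes were all member probe sets, every gene of the 2 retinoid lists that passed in either fit, the 3 genes most like each of 4 members, and the injected factors. Tissue lists are given by counts. A gene stands for its probe set with the highest mean. The members, lists and rules were chosen with earlier results of these data known. Sequences and promoters were not analysed here.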

Additional observations from a re-analysis of the deposited data

How the results depend on the processing

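Over 9 comparisons, 23 member calls were made without and 61 with the replicate block, and 6 and 41 of these held with any 1 of the 15 samples left out. No call of either fit changed its sign under an alternative that was run, but several alternatives could not change it. Variance settings, fitting only the groups compared, the filter on level and the test against 0.5 leave the unblocked difference as it is. The blocked fit was run only with samples left out, so the 38 calls of that fit alone were not tried under the other alternatives. Member counts against control were 2 in Pax3 caps, 3 in Pax3+Zic1 caps, 5 in Pax3 caps with cycloheximide and 8 in Pax3+Zic1 caps with cycloheximide. For the drug they were 2 in Pax3 and 3 in Pax3+Zic1 caps. With the replicate block these 6 counts were 7, 10, 10, 12, 9 and 9, and those for added Zic1, both 0 without it, were 3 without and 1 with the drug. With 1 sample left out at a time the 6 counts ranged from 1 to 2, 0 to 4, 2 to 6, 4 to 8, 0 to 3 and 0 to 3, and those for added Zic1 stayed at 0. With the block they ranged from 3 to 7, 6 to 13, 9 to 13, 12 to 15, 5 to 12 and 5 to 10, and those for added Zic1 from 0 to 4 without and 1 to 2 with the drug. When only the groups compared were fitted, the 6 counts were 0, 0, 3, 3, 0 and 0, and with differences tested against 0.5 they were 1, 0, 1, 2, 0 and 0, by a stricter construction. In Pax3 caps the count was 1 with array 2.1 alone, with trend and robust settings, with quantile normalization and with median centring. In Pax3+Zic1 caps it was 1 with array 2.1 alone and 1 with the lower 50 percent of probe sets by mean left out. For the drug in Pax3 caps it was 1 with median centring. Smaller shifts of the counts are not all listed. rara.L Xl2.158.1.S1_at lost its calls against control in both Zic1 groups under quantile normalization (adjusted p 0.0544 and 0.0523) and median centring (0.0667 and 0.0660). For the drug in Pax3+Zic1 caps rarg.S Xl2.6965.3.S1_x_at lost its call with array 2.2 alone (0.0501) and with median centring (0.0626). The causes of these shifts were not tested. The main limits are 3 samples a group, a control group without injection, hormone or drug, and probe sets whose annotation may be old.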
